A study of Mus musculus with 12 samples.

Results

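The genes described here mark where a cell stands between an epithelial and a mesenchymal state. They are 10 listed genes of 19212 in the deposited table, all 10 of which were found by symbol: Cdh1, Epcam and Krt8 for the epithelial side, Cdh2 and Vim for the mesenchymal side, and the transcription factor genes Zeb1, Zeb2, Snai1, Snai2 and Twist1. They were taken from a fixed list of names, which was chosen with earlier results of these data known. The study sequenced messenger RNA of 12 mouse lung cancer samples in 4 groups of 3. In the knockdown experiment, cells of the Lewis lung carcinoma (a transplantable mouse lung tumour line, LLC) were given a negative control lentivirus (NC, genotype WT) or an Otub1 knockdown lentivirus (OTUB1_KD) and then used to make orthotopic tumours, that is, tumours in the lung. In the treatment experiment, mice with tumours (genotype WT) received physiological saline (Blank) or an agent that the labels name SFD@M. The labels give no strain, age, dose or time, do not say what SFD@M is made of, and leave unstated whether each library is its own mouse. Any p-value here therefore reflects scatter among these samples alone, part of which may be technical.

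Epithelial cells are held together by E-cadherin, the product of Cdh1, and by the adhesion molecule EpCAM, and carry keratin filaments such as keratin 8. Mesenchymal cells instead use N-cadherin, the product of Cdh2, and filaments of vimentin, the product of Vim. In the epithelial-mesenchymal transition the ZEB, SNAIL and TWIST factors bind short DNA motifs called E-boxes in promoters of epithelial genes and lower their transcription. In normal lung, epithelial cells carry Cdh1, Epcam and Krt8, while fibroblasts, endothelial cells and leukocytes carry Vim and several of the factors.

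Promoters of 2 epithelial members that behaved differently in these libraries are shown, because E-boxes are the sites through which the factors act. The sequences are those of RefSeq on the mouse build GRCm38.p6, from 250 bases before to 50 bases after the transcription start, 5′ to 3′ on the strand of the gene, with CACCTG (or its reverse complement CAGGTG) in capitals. Epcam lies at chr17:87635729-87636028 on the plus strand and Krt8 at chr15:102004293-102004592 on the minus strand.
Epcam: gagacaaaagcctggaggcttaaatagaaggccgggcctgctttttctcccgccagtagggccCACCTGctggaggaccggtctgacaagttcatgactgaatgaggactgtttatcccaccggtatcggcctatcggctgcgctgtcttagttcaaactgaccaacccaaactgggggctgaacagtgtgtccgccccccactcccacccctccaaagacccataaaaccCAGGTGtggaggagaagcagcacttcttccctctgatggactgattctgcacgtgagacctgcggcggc
Krt8: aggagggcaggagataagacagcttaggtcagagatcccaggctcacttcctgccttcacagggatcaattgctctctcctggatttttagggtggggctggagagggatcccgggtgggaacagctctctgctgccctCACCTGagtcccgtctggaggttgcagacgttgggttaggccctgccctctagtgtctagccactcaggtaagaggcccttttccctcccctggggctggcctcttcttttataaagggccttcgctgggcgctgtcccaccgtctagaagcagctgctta
The Epcam window holds 2 matches, whose first bases lie at -187 and -19 from the start, and the Krt8 window holds 1, at -111. Of 32851 promoter windows of the same length, 20.2% hold at least 1 match on either strand. The looser E-box CANNTG, which contains CACCTG, is present in 72.3% of all windows. Windows were at hand for 6 of the 10 members, and that of Snai1 holds 1 CACCTG match while those of Vim, Zeb2 and Twist1 hold 0. A match is a description of the letters only.

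The groups differed in markers of cell types as well as in label. Library totals were 16062805 to 18028815 counts. Ptprc, the leukocyte CD45 gene, was at 154 to 239 CPM (counts scaled to the library total) in OTUB1_KD and SFD@M libraries and at no more than 0.187 CPM in NC and Blank. The summed level of 7 alveolar type 2 markers was 10968 to 26198 CPM in the former and 52.2 to 62.6 CPM in the latter, and that of 6 airway markers was 12661 to 38909 against 3.77 to 5.10 CPM. Sftpd and Scgb3a2 were among the defining markers at 0 counts in both NC and Blank. Summed markers of dividing cells stood at 2450 to 2606 CPM in NC and Blank, 174 to 794 in OTUB1_KD and at most 82.1 in SFD@M. Of the NC mean, the summed level of 4 Y-linked genes stood at 36.9%, 0.184% and 7.08% in OTUB1_KD replicates 1, 2 and 3. SFD@M libraries held 0.0475% to 0.442% of the Blank mean. The part of these markers in the results below was not tested. Otub1 itself was at 69.8 to 76.2 CPM in NC, at 58.6, 49.3 and 71.2 CPM in OTUB1_KD replicates 1 to 3, at 73.3 to 78.0 in Blank and at 45.5 to 48.1 in SFD@M. It did not pass the test in OTUB1_KD against NC (log2 fold change -0.36 ± 0.18, edgeR adjusted p = 0.112) but fell in SFD@M against Blank (-0.71 ± 0.05, adjusted p = 5.8e-06). Since OTUB1_KD replicate 3 lay within the NC range, the labels are used below as the names of libraries. In bulk tissue, fewer cells of a type and less RNA per cell cannot be told apart.

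**Figure D1:**
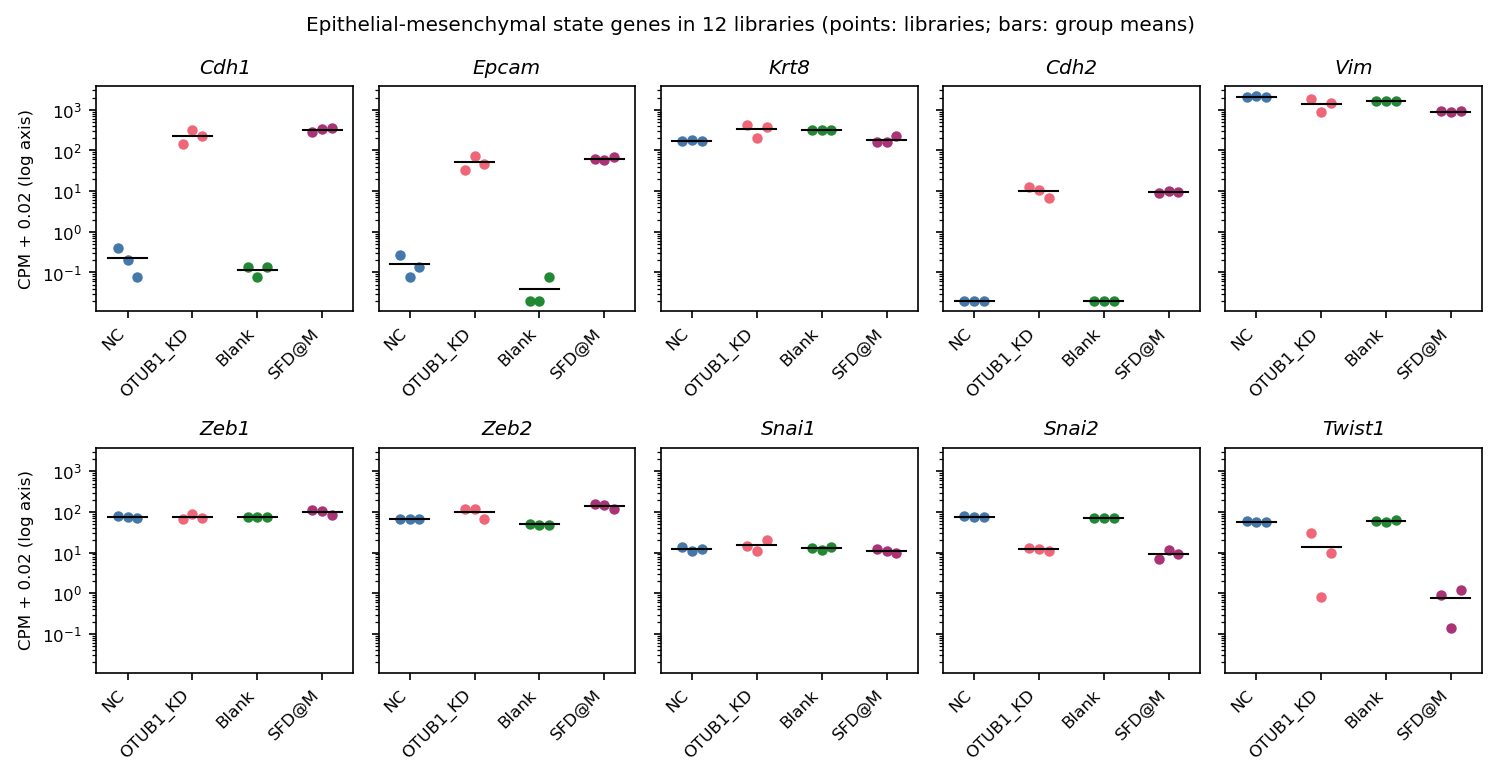
CPM plus 0.02 on a log axis for each of the 10 genes, with a point per library and a bar at each group mean (4 groups of 3). Cdh1, Epcam and Cdh2 lie at or near the bottom in NC and Blank, while Krt8, Vim, Zeb1, Zeb2 and Snai1 are well expressed in every library and Snai2 and Twist1 are high in NC and Blank.

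The 3 members of the epithelial side did not move together. Cdh1 and Epcam were almost silent in NC and Blank and abundant in OTUB1_KD and SFD@M, whereas Krt8 was abundant everywhere. Cdh1, which encodes the E-cadherin of adherens junctions, had 6, 3 and 1 counts in the NC libraries and 2, 1 and 2 in Blank. It reached 143, 318 and 225 CPM in OTUB1_KD replicates 1 to 3 and 292, 338 and 351 CPM in SFD@M. The groups did not overlap in either experiment, and the lowest OTUB1_KD value was in the replicate with the most Y-linked RNA. Cdh1 rose by 10.03 ± 0.57 (log2 fold change ± SE from the edgeR quasi-likelihood fit, adjusted p = 2.7e-05) in OTUB1_KD against NC and by 11.58 ± 0.17 (adjusted p = 4.9e-09) in SFD@M against Blank. As ratios of mean CPM these are 1137 (95% counting interval 618 to 2371, from 10 counts in NC) and 3373 (1445 to 10388, from 5 counts in Blank).

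Epcam, an adhesion molecule of epithelial cell surfaces, had 4, 1 and 2 counts in NC and 0, 0 and 1 in Blank. Its levels were 33.1, 73.0 and 47.5 CPM in OTUB1_KD replicates 1 to 3 and 61.0, 57.2 and 68.5 CPM in SFD@M. Here too replicate 1 was the lowest OTUB1_KD library, and all 6 libraries lay far above the controls. The rise was 8.36 ± 0.52 in OTUB1_KD against NC (adjusted p = 3.5e-05), a ratio of 364 (counting interval 177 to 905). In SFD@M against Blank the single Blank count gives a ratio of 3212 with an interval of 577 to 126885 (edgeR adjusted p = 2.1e-08).

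Krt8 encodes a type II keratin of simple epithelia, which forms filaments with a type I keratin, usually keratin 18. It was at 170, 180 and 173 CPM in NC and at 428, 203 and 377 CPM in OTUB1_KD replicates 1 to 3. In the treatment experiment it was at 311, 313 and 316 CPM in Blank and at 165, 166 and 222 CPM in SFD@M. Neither pair of groups overlapped, but the direction was opposite: Krt8 rose by 0.88 ± 0.29 in OTUB1_KD against NC (adjusted p = 0.0317) and fell in SFD@M against Blank (-0.80 ± 0.12, adjusted p = 0.00031). OTUB1_KD replicates 1 and 3 stood above every NC, Blank and SFD@M library. The rise in OTUB1_KD lost its call without any 1 NC library (adjusted p = 0.101, 0.0889 and 0.0973 without NC replicates 1, 2 and 3), without OTUB1_KD replicate 1 (0.66, adjusted p = 0.0759) or replicate 3 (0.77, adjusted p = 0.0924). The same held for limma on log2(TPM + 1), where the change was 0.63 (adjusted p = 0.110).

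The keratin partners separated Krt8 from its usual pairing in the libraries poor in lung markers. On the length-corrected TPM scale (transcript abundance scaled by length and library), Krt18 stood at 6.35, 6.06 and 5.86 in NC and 6.75, 6.05 and 6.26 in Blank, against Krt8 at 173, 183 and 175 and at 325, 327 and 330. The Krt8 to Krt18 ratio of TPM was thus 27.3 to 30.2 in NC and 48.1 to 54.0 in Blank. It was 0.995 to 1.20 in SFD@M and 4.04, 1.06 and 2.90 in OTUB1_KD replicates 1, 2 and 3. Within OTUB1_KD the ratio was highest in the replicate with the most Y-linked RNA and lowest in the one with the least. Krt19, the other common type I keratin of simple epithelia, was at 0 to 0.160 TPM in NC, listed at 0 in Blank, and at 159 to 324 TPM in the other 6 libraries.

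**Figure D2:**
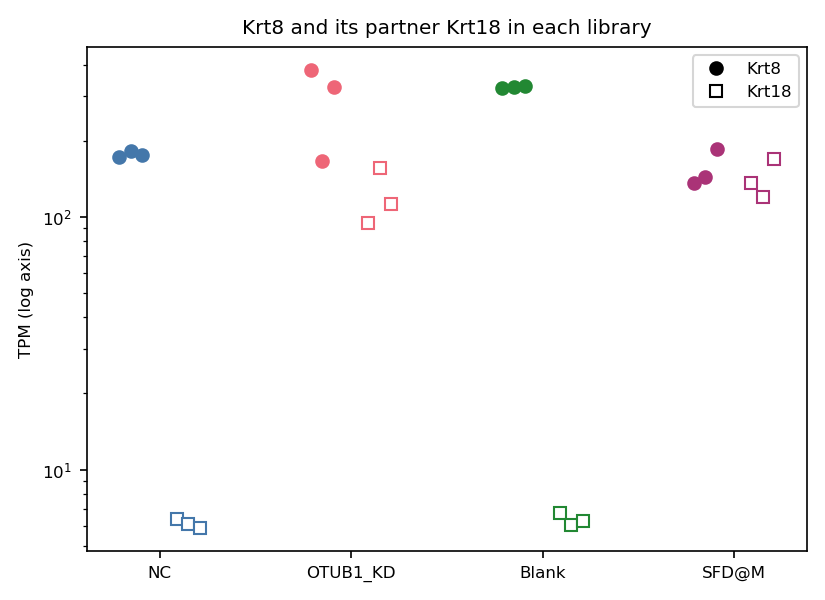
TPM on a log axis of Krt8 (filled circles) and Krt18 (open squares) in each library of the 4 groups. In NC and Blank Krt18 lies at 5.86 to 6.75 TPM, far below Krt8, while in SFD@M the 2 genes are at similar levels.

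On the mesenchymal side, Cdh2 and Vim went opposite ways. Cdh2 encodes N-cadherin and had 0 counts in all 6 NC and Blank libraries, where 3 counts over a group would correspond to 0.0603 and 0.0581 CPM. It was at 12.9, 10.5 and 6.93 CPM in OTUB1_KD replicates 1 to 3 and at 8.75, 9.94 and 9.72 CPM in SFD@M. It was therefore at least 168-fold higher in OTUB1_KD than in NC (adjusted p = 0.00027) and at least 163-fold higher in SFD@M than in Blank (adjusted p = 3.6e-06). In those 6 libraries Cdh1 had 1 to 6 counts, so neither cadherin was abundant there. Where both could be measured, E-cadherin transcripts were the more abundant: the Cdh1 to Cdh2 ratio of TPM was 36.7 to 39.7 in SFD@M and 12.2, 33.2 and 35.6 in OTUB1_KD.

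Vim, the intermediate filament protein of mesenchymal cells, was the highest of the 10 genes by TPM in every group. It was at 2102, 2156 and 2101 CPM in NC and 1847, 897 and 1477 CPM in OTUB1_KD replicates 1 to 3. In Blank it was at 1655, 1652 and 1676 CPM and in SFD@M at 921, 872 and 924 CPM. The controls lay above the other arm in both experiments, and OTUB1_KD replicate 2 was as low as the SFD@M libraries. Vim fell by 0.91 ± 0.06 in SFD@M against Blank (adjusted p = 2.7e-06). In OTUB1_KD against NC the change of -0.65 ± 0.29 did not pass the test (adjusted p = 0.0838), but it did without OTUB1_KD replicate 1 (-0.91, adjusted p = 0.0194) and with DESeq2 (-0.65, adjusted p = 0.0363).

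Among the 5 transcription factor genes, Twist1 and Snai2 were lower in every OTUB1_KD and SFD@M library than in all of its controls. Zeb2 rose in SFD@M, while Zeb1 and Snai1 differed little. Twist1 encodes a basic helix-loop-helix factor of mesoderm. It was at 58.7, 55.7 and 57.8 CPM in NC and at 29.6, 0.809 and 9.82 CPM in OTUB1_KD replicates 1 to 3. In Blank it was at 61.0, 57.3 and 62.3 CPM, and in SFD@M at 0.881, 0.118 and 1.18 CPM (15, 2 and 20 counts). The groups did not overlap in either experiment, and OTUB1_KD had by far the widest spread. Twist1 fell by 6.40 ± 0.32 in SFD@M against Blank (adjusted p = 7.4e-07). The change in OTUB1_KD against NC was -2.16 ± 0.95 and did not pass the test (adjusted p = 0.0801), but it did without OTUB1_KD replicate 1 (-3.49, adjusted p = 0.0160) and without replicate 2 (-1.61, adjusted p = 0.0306), and likewise by limma on log2(TPM + 1), at -3.02 (adjusted p = 0.0257).

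Snai2 encodes the zinc finger factor SLUG. It was at 79.7, 75.9 and 73.3 CPM in NC and at 12.7, 12.6 and 11.2 CPM in OTUB1_KD, and at 70.4, 69.3 and 69.8 CPM in Blank against 6.87, 11.4 and 9.30 CPM in SFD@M. It fell in OTUB1_KD (-2.72 ± 0.14, adjusted p = 1.9e-05) and in SFD@M (-2.96 ± 0.16, adjusted p = 9.0e-07). In the main edgeR fits, Snai2 was the only factor gene of the 5 that passed in both experiments in the same direction. That depends on the fit: in OTUB1_KD against NC, Twist1 passed as lower with limma-voom (adjusted p = 0.0242). Zeb2 passed there as higher in the edgeR fit of all 12 libraries (adjusted p = 0.0294). Its spread within OTUB1_KD was small: the 3 libraries held 16.6%, 16.5% and 14.7% of the NC mean, although Y-linked RNA ranged from 0.184% to 36.9% and Twist1 from 1.41% to 51.6% in them. In OTUB1_KD replicate 1, Snai2 thus stood at a lower share of NC (16.6%) than Y-linked RNA (36.9%), dividing-cell markers (31.7%) or Twist1 (51.6%). These values were not tested against each other.

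**Figure D3:**
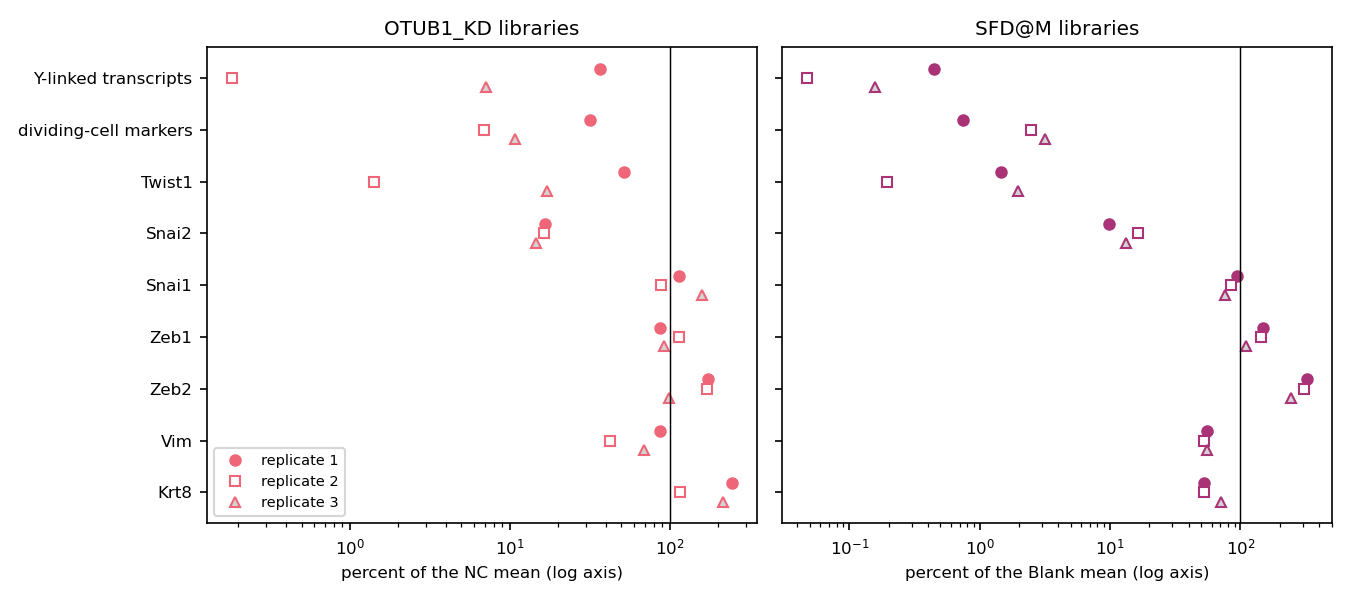
Level of 7 members, of 4 Y-linked genes and of 5 dividing-cell markers in each OTUB1_KD library as a percent of the NC mean, and in each SFD@M library as a percent of the Blank mean (CPM, log axes, 3 replicates each). In OTUB1_KD the Twist1 points spread with the Y-linked points, from 1.41% to 51.6%, and the Snai2 points lie together at 14.7% to 16.6%.

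Zeb2, a zinc finger homeobox repressor also found in macrophages and endothelial cells, was at 67.8, 68.7 and 67.6 CPM in NC and at 119, 117 and 67.4 CPM in OTUB1_KD replicates 1 to 3. It was at 50.3, 48.4 and 48.9 CPM in Blank and at 159, 150 and 121 CPM in SFD@M. SFD@M lay wholly above Blank (1.51 ± 0.10, adjusted p = 3.2e-06), while OTUB1_KD replicate 3 fell just under the NC range. The OTUB1_KD change of 0.50 ± 0.22 did not pass the test (adjusted p = 0.0838), but passed without that replicate (0.70, adjusted p = 0.0020).

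Zeb1, the paralogous repressor, was at 81.5, 75.2 and 71.6 CPM in NC, at 66.1, 86.7 and 69.9 CPM in OTUB1_KD, at 75.0, 75.4 and 74.9 CPM in Blank and at 111, 107 and 82.6 CPM in SFD@M. It rose by 0.38 ± 0.11 in SFD@M against Blank (adjusted p = 0.0106), a small change beside the median of 0.23 over all genes tested there. On log2(TPM + 1), where that median moves to -0.03, the change of Zeb1 was 0.12 and did not pass (adjusted p = 0.325). In OTUB1_KD against NC its groups overlapped (-0.10 ± 0.15, adjusted p = 0.561). The Zeb1 to Zeb2 ratio of TPM was 1.80 to 2.07 in NC, 2.51 to 2.63 in Blank, 0.946 to 1.73 in OTUB1_KD and 1.17 to 1.24 in SFD@M.

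Snai1, which encodes the founding SNAIL repressor, overlapped between arms in both experiments. It was at 13.9, 11.2 and 12.1 CPM in NC, at 14.2, 11.04 and 19.9 CPM in OTUB1_KD, at 13.2, 11.7 and 13.99 CPM in Blank and at 12.2, 11.004 and 9.83 CPM in SFD@M. Its changes of 0.22 ± 0.26 (adjusted p = 0.488) and -0.27 ± 0.12 (adjusted p = 0.0679) did not pass the test. The second passed without SFD@M replicate 1 (-0.33, adjusted p = 0.0343). By limma on log2(TPM + 1) it was -0.51 (adjusted p = 0.0016). Per length, Snai2 was the more abundant of the pair in NC and Blank, with a Snai2 to Snai1 ratio of TPM of 3.80 to 5.14, and the less abundant in OTUB1_KD and SFD@M, at 0.432 to 0.873.

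**Figure D4:**
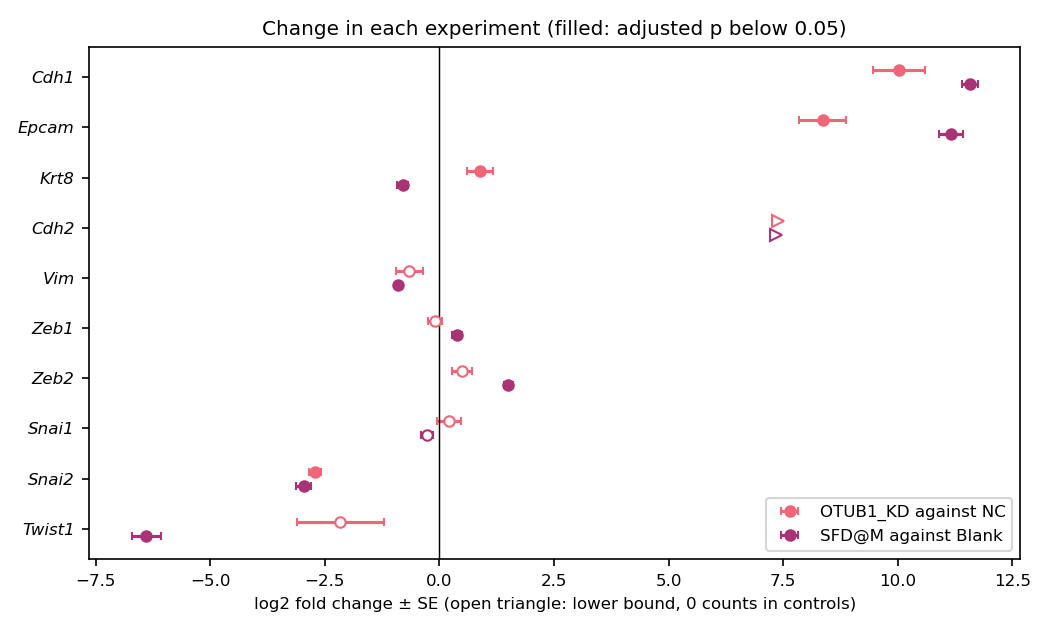
Log2 fold change with its standard error for each gene in OTUB1_KD against NC and in SFD@M against Blank (3 libraries a group); filled points passed at an adjusted p below 0.05, and open triangles are lower bounds for Cdh2, which had 0 counts in the controls. Krt8 lies on opposite sides of 0 in the 2 experiments, and Snai2 lies near -3 in both.

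Counted together, 4 members were higher and 1 lower in OTUB1_KD than in NC, and 5 of 10 did not pass. This stands beside 65.7% of all 14785 genes tested (39.9% higher and 25.8% lower). The number of members called was 4 to 6 with 1 library left out and 8 in a fit of all 12 libraries. A set of 10 genes is too small to set its share apart from that of all genes. In SFD@M against Blank 5 were higher and 4 lower, where 88.1% of 14824 genes were called (49.5% higher and 38.7% lower). The libraries of the groups did not overlap for 7 members in the first comparison and 9 in the second, against 78.2% and 90.2% of all genes. Cdh1, Epcam and Cdh2 passed the filter on low counts only through the group in which they were high, so their calls are no separate support.

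The changes of the 2 experiments were set against each other in 1 fit of all 12 libraries. Of the 9 members for which the difference could be given (Cdh2 had 0 counts in both controls), 3 passed, where 23.1% of 15304 genes did (12.4% higher and 10.8% lower). Of all these calls 53.5% were higher, but 40.4% on log2(TPM + 1) and 43.3% on log2(TPM + 0.1). The change in SFD@M was the lower for Krt8 (difference -1.66 ± 0.34, adjusted p = 0.0080) and for Twist1 (-4.22 ± 1.24, adjusted p = 0.0323), and the higher for Zeb2 (1.04 ± 0.25, adjusted p = 0.0154). The Krt8 and Zeb2 differences passed without any 1 of the 12 libraries (highest adjusted p = 0.0252 and 0.0413). That of Twist1 was lost without any 1 of 10 libraries, among them each control library (adjusted p of 0.0502 to 0.0814 over the 10), and remained past the threshold without OTUB1_KD replicate 2 or replicate 3. It was lost as well with limma-voom (-3.50, adjusted p = 0.1499) and with limma on log2(TPM + 1), log2(TPM + 0.1) and log2(FPKM + 1), at -2.46, -3.43 and -2.21 (adjusted p = 0.113, 0.1001 and 0.132). Without OTUB1_KD replicate 2 the differences of Vim (-0.49, adjusted p = 0.0216) and Zeb1 (0.61, adjusted p = 0.0178) passed too. That of Zeb1 also passed without SFD@M replicate 3 (0.64, adjusted p = 0.0238). The Epcam difference passed without OTUB1_KD replicate 2 as well (3.12, adjusted p = 0.0401). It rests on 4, 1 and 2 counts in NC and 0, 0 and 1 in Blank, too few to bear a difference between the experiments. The Cdh1 difference, which did not pass, has the same limit, with 6, 3 and 1 counts in NC and 2, 1 and 2 in Blank.

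The 2 control groups also differed. In Blank against NC, which crosses the experiments and shares libraries with the comparisons above, Krt8 was higher (0.84 ± 0.03, adjusted p = 1.9e-43) and Vim (-0.35 ± 0.02, adjusted p = 3.0e-24), Zeb2 (-0.47 ± 0.04, adjusted p = 3.8e-17) and Snai2 (-0.13 ± 0.04, adjusted p = 0.0021) were lower. These are 4 of the 7 members that passed the filter, where 74.3% of 12087 genes were called (37% higher and 37.2% lower). Zeb1 (-0.02), Snai1 (0.06) and Twist1 (0.07) did not pass (adjusted p = 0.655, 0.549 and 0.141). Twist1 passed without Blank replicate 2 (0.11, adjusted p = 0.0357). Among the 7 members tested, the libraries did not overlap for the same 4, against 75.3% of genes tested. They did not overlap for Epcam either, which was not tested here and is outside that share. Its NC replicate 2 and Blank replicate 3 held 1 count each (0.0594 and 0.0583 CPM), so those libraries differ only through their totals. In a fit that shares the spread of all 12 libraries only Krt8 of the 7 tested members passed. The labels do not say whether the tumours of the 2 experiments were raised from the same stock of cells.

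Between the other 2 arms, SFD@M against OTUB1_KD, 0 of the 10 members passed with edgeR, where 0.0134% of 14914 genes did. Without adjustment 3 members lay under 0.05, as did 19.9% of all genes. These were Krt8 (-0.87 ± 0.32, adjusted p = 0.196), Zeb1 (0.45 ± 0.19, adjusted p = 0.239) and Twist1 (-4.20 ± 1.22, adjusted p = 0.136). DESeq2 called 1, Twist1 (adjusted p = 0.0308). Without OTUB1_KD replicate 2, 3 members passed: Krt8 (-1.15, adjusted p = 0.0244), Vim (-0.90, adjusted p = 0.0371) and Twist1 (-4.77, adjusted p = 0.0185). The libraries did not overlap for 1 member, Zeb2, against 28.7% of genes.

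By TPM, which corrects for length, the order of the 10 genes differed between the library types below the first 2 places. Vim and then Krt8 led in each of the 4 groups. In NC they were followed by Snai2 (67.3 TPM) and Twist1 (66.1), whose libraries overlapped, then Zeb1 (22.6), Snai1 (14.4) and Zeb2 (11.8). Blank had the same order down to Zeb2, except that Twist1 (71.2) stood above Snai2 (63.4) without overlap. In SFD@M Cdh1 (101 TPM) and Epcam (44.8) followed Krt8, then Zeb1 (25.3) and Zeb2 (21.1), which overlapped, Snai1 (10.6), Snai2 (6.76), Cdh2 (2.65) and last Twist1 (0.683). In OTUB1_KD Cdh1 (71.7) and Epcam (37.3) also followed Krt8, with overlapping libraries. From Zeb1 (18.9) through Zeb2 (15.2), Snai1 (14.8) and Twist1 (13.4) to Snai2 (9.11) each neighbour there overlapped the next.

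Other genes of the same biology were counted from lists of names. Many of the epithelial ones passed the filter only through the libraries rich in lung markers, so their counts are a description. Over all genes tested, 39.9% were higher and 25.8% lower in OTUB1_KD, and 49.5% and 38.7% in SFD@M. Of 29 genes of junctions and epithelial surfaces 28 were tested in OTUB1_KD against NC: 26 rose and 0 fell, with a median of 7.48 against 0.16 over all genes. In SFD@M against Blank 29 of 29 rose (median 7.81, or 7.81 with members at 0 counts set to their bound, against 0.23). Spint2, a membrane protease inhibitor of epithelia, had 6 counts in NC and 152 ± 65.9 CPM (mean ± SD, n = 3) in OTUB1_KD, and 3 counts in Blank and 153 ± 5.63 CPM in SFD@M. Lsr, a protein of tricellular junctions, had 3 counts in NC and 51.5 ± 18.3 CPM in OTUB1_KD, and Spint1, a second protease inhibitor, went from 0.0999 ± 0.0679 to 39.2 ± 10.98 CPM. Dsp, desmoplakin of desmosomes, had 2 counts in Blank and 88.2 ± 2.20 CPM in SFD@M, and Cgn, cingulin of tight junctions, went from 0.271 ± 0.146 to 129.7 ± 3.87 CPM. Without OTUB1_KD replicate 1, and on log2(TPM + 1), 1 junction gene fell in OTUB1_KD. In NC, 9 of the 29 genes reached 1 CPM, and in Blank 8.

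Of 15 further keratins 9 were tested in each experiment, and 9 rose in each. Beside these and the regulators below, 39.9% of all genes tested rose in OTUB1_KD and 49.5% in SFD@M. The medians were 9.79 and 9.16, or 7.07 and 6.48 with members at 0 counts set to their bound. Krt80 went from 2.28 ± 0.538 to 74.7 ± 9.30 CPM in OTUB1_KD. Krt7, a simple-epithelial type II keratin, went from 0.446 ± 0.121 CPM in Blank to 265 ± 3.31 CPM in SFD@M. Krt18 rose by 4.51 ± 0.26 and 4.76 ± 0.17 (adjusted p = 2.9e-05 and 1.2e-07), against the opposite directions of Krt8. Regulators of the epithelial state numbered 15, of which 14 were tested and 14 rose in each experiment (medians 3.98 and 5.72, the latter 5.57 with bounds). The splicing regulator Esrp1 had 3 counts in NC and 26.7 ± 9.75 CPM in OTUB1_KD, and 6 counts in Blank and 38.4 ± 2.88 CPM in SFD@M. Esrp2, its paralogue, went from 0.221 ± 0.181 to 31.4 ± 10.1 CPM and from 0.155 ± 0.0667 to 48.7 ± 0.806 CPM. The factor gene Elf5 had 1 count in NC and 17.6 ± 6.01 CPM in OTUB1_KD, and the pioneer factor gene Foxa1 went from 0.639 ± 0.101 to 51.6 ± 4.03 CPM in SFD@M against Blank.

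**Figure D5:**
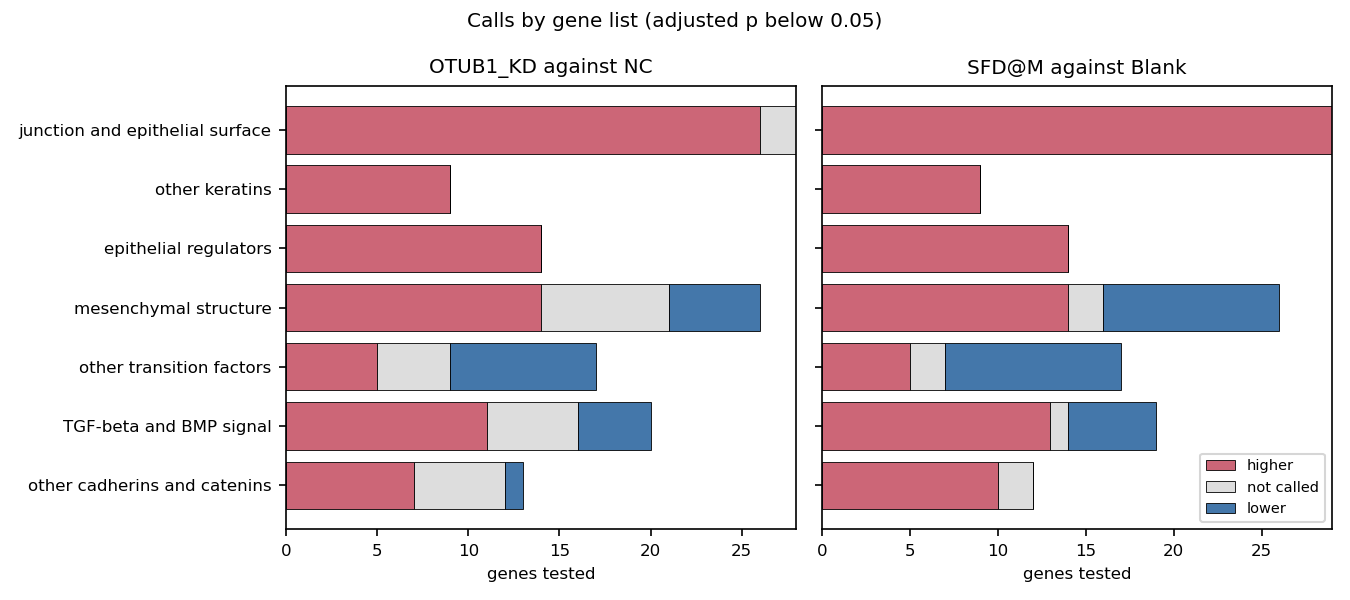
Number of tested genes of each list that were higher (red), not called (grey) or lower (blue) at an adjusted p below 0.05, for OTUB1_KD against NC and SFD@M against Blank. The 3 epithelial lists hold 0 lower calls in either comparison (1 junction gene fell in OTUB1_KD on log2(TPM + 1)), while the mesenchymal and factor lists hold calls in both directions.

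For the lists that follow, the shares over all genes tested were 39.9% higher and 25.8% lower in OTUB1_KD, and 49.5% higher and 38.7% lower in SFD@M. The mesenchymal list held calls in both directions. Of 26 structural and matrix genes tested 14 rose and 5 fell in OTUB1_KD (median 1.02), and 14 rose and 10 fell in SFD@M (median 0.40), the latter near the shares over all genes. The number that fell in OTUB1_KD was 3 without any 1 NC library, 10 without OTUB1_KD replicate 1, 2 without OTUB1_KD replicate 3 and 9 on log2(TPM + 1). Acta2, smooth muscle actin, rose from 6.15 ± 0.246 to 173 ± 46.3 CPM in OTUB1_KD and from 2.69 ± 0.363 to 141 ± 44.0 CPM in SFD@M, and Thy1, a surface protein of fibroblasts and T cells, from 0.0989 ± 0.0906 to 42.1 ± 12.1 CPM in OTUB1_KD. The integrin gene Itgb3 rose by 2.11 ± 0.14 there. Lox, a collagen cross-linking enzyme, was at least 4531-fold higher in SFD@M than in Blank, where it had 0 counts, and the muscle filament gene Des rose by 3.80 ± 0.16. The genes that fell included ones often used as mesenchymal tumour markers. Loxl2, a lysyl oxidase, fell from 371 ± 6.52 to 146 ± 78.2 CPM and from 290 ± 5.72 to 53.3 ± 11.1 CPM. Nes, nestin, fell in OTUB1_KD (-0.79 ± 0.17), as did the calcium-binding protein gene S100a6 (-1.39 ± 0.35). Axl, a receptor kinase, fell (-1.58 ± 0.05), and Lgals1, galectin 1, from 2315 ± 17.0 to 125 ± 27.9 CPM in SFD@M. Summed markers of fibroblasts were at 2198 to 2299 CPM in NC, 3294 to 5097 in OTUB1_KD, 2678 to 2756 in Blank and 1696 to 2306 in SFD@M, and their part in these counts was not tested.

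Other factors linked to the transition also gave calls in both directions. Of 17 tested of 20, 5 rose and 8 fell in OTUB1_KD (median -0.53), and 5 rose and 10 fell in SFD@M (median -0.68). Over all genes the shares were 39.9% higher and 25.8% lower, and 49.5% and 38.7%. Prrx1, a homeobox factor of mesenchyme, fell from 392 ± 3.25 to 50.7 ± 41.9 CPM and from 368 ± 2.71 to 15.3 ± 0.800 CPM. Wwtr1, the Hippo coactivator TAZ, fell in OTUB1_KD (-0.78 ± 0.15). Twist2, the paralogue of Twist1, fell from 25.9 ± 0.877 to 1.35 ± 0.356 CPM in SFD@M, and Fosl1, an AP-1 subunit, from 36.7 ± 0.160 to 0.177 ± 0.102 CPM. Sox4 had 0 counts in NC and was at least 688-fold higher in OTUB1_KD, at 41.5 ± 16.9 CPM, and had 1 count in Blank and 53.2 ± 7.09 CPM in SFD@M. Klf8 was at least 79.5-fold higher in OTUB1_KD than in NC. The helix-loop-helix inhibitor genes rose as well, Id2 by 1.69 ± 0.26 in OTUB1_KD and by 4.42 ± 0.16 in SFD@M, and Id3 by 2.90 ± 0.13 in SFD@M.

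Transforming growth factor beta is the best known inducer of the transition. A list of 20 genes held its signal and the related ligand genes Bmp4, Bmp7 and Inhba. Of the 20 tested in OTUB1_KD, 11 rose and 4 fell (median 0.57). Of 19 tested in SFD@M, 13 rose and 5 fell (median 0.84). These stand beside the same 39.9% and 25.8%, and 49.5% and 38.7%, of all genes. The number that fell in OTUB1_KD was 2 without any 1 NC library. Tgfbr2, the ligand-binding receptor, rose by 2.38 ± 0.19 and 2.68 ± 0.08, and Tgfb1, the ligand, from 9.22 ± 0.494 to 64.7 ± 7.10 CPM in SFD@M. Itgb6, an integrin that frees the ligand in epithelia, had 2 counts in NC and 42.5 ± 20.2 CPM in OTUB1_KD. Bmp4 had 2 counts in NC and 48.1 ± 26.4 CPM in OTUB1_KD, and was at least 860-fold higher in SFD@M than in Blank. The coreceptor gene Tgfbr3 fell in OTUB1_KD and SFD@M (-1.72 ± 0.29 and -1.12 ± 0.09). So did Itgav, an integrin that binds the latent ligand (-1.43 ± 0.34 and -0.92 ± 0.05), and the latency protein gene Ltbp1 (-0.48 ± 0.15 and -0.48 ± 0.10).

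Of 16 further cadherins and catenins, 13 were tested in OTUB1_KD, where 7 rose and 1 fell (median 0.81), and 12 in SFD@M, where 10 rose and 0 fell (median 6.89, or 6.54 with bounds). The total called lies near the 65.7% and 88.1% of all genes called. Cdh5, the cadherin of endothelial junctions, had 0 counts in NC and 441 ± 201 CPM in OTUB1_KD, at least 7320-fold more, and 1 count in Blank against 561 ± 126 CPM in SFD@M. Cdh3, P-cadherin, had 4 counts in NC and 21.1 ± 5.84 CPM in OTUB1_KD, and Cdh13 had 2 and 1 counts in the controls against 32.7 ± 17.4 and 25.6 ± 8.74 CPM. Ctnna1, the alpha-catenin that links cadherins to actin, rose by 1.23 ± 0.06 in SFD@M against Blank. Cdh15, a muscle cadherin, was the 1 gene that fell in OTUB1_KD, from 1.75 ± 0.165 to 0.302 ± 0.0618 CPM. The number that fell was 2 without OTUB1_KD replicate 1 and 3 without OTUB1_KD replicate 2, and on log2(TPM + 1) 4 fell in OTUB1_KD and 2 in SFD@M.

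The genes nearest to each member in profile were found by the root mean square difference (RMS) of log2(TMM-scaled CPM + 1), centred over the 12 libraries, among 13792 genes. This is a description over 12 libraries that share the marker differences given above. Nearest to Cdh1 were Postn and Atp2a3 (RMS 0.20 and 0.24, against a range of 8.35 for Cdh1 itself), and nearest to Epcam were Atp6v1c2 and Fzd6 (both 0.13). Cdh2 was closest to Cd226 and Klrd1 (0.13 and 0.15). Twist1 was closest to Pla2g5 and Xlr3c (0.25 and 0.29) and Snai2 to Gxylt2 and Dner (0.25 and 0.26). The remaining members had smaller ranges, from 0.73 for Zeb1 to 1.65 for Zeb2. Their nearest genes were Ppp1r18 and Bcl2l15 for Vim (0.10 and 0.11), Kif1b and Gcc2 for Zeb1 (0.10 and 0.10) and Bach1 and Mef2a for Zeb2 (0.13 and 0.13). They were Coro1c and Plekhj1 for Snai1 (0.10 and 0.12) and Sting1 and Armc6 for Krt8 (0.18 and 0.19).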

How the data were processed

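Libraries of oligo(dT)-selected messenger RNA were read on DNA nanoballs (per the labels' protocols), and were grouped by their titles (the codes of the Blank samples begin with KD). The authors deposited 1 table of 70659 RefSeq transcripts holding, per the file headers, estimated (expected) read counts, TPM, FPKM and normalized counts. The last, a signal scaled by the authors, was divided by 1 factor per library, its median ratio to expected counts rounded up. The results were whole numbers (100% of deposited values within 0.001). Whether each equals the rounded-up expected count was not tested. Bowtie2, RSEM 1.3.1, DESeq2 1.4.5 and GRCm39 are named in the submitters' processing notes. The counting's use of strand is not given in the sources used here. Antisense partners and near-identical copies such as keratin pseudogenes may therefore share reads.

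Expected counts were summed per Entrez gene and rounded. Symbols came from RefSeq GRCm38.p6 (19155 of 19212 matched, and the 57 without a symbol held at most 0.342% of counts). Comparisons used edgeR 4.0.16 in R 4.3.3 (filterByExpr, TMM, robust quasi-likelihood test, Benjamini-Hochberg adjusted p below 0.05), on the groups compared, or on all 12 libraries for the difference between experiments. The SE is the absolute log2 fold change divided by the square root of F. CPM levels use library totals. Genes with 0 counts use a floor of 3 counts over the group, and intervals (95%, Poisson) and floors cover counting error only. Alternatives used other scalings, filters, limma 3.58.1, DESeq2 1.42.0, a replicate block, and each library left out; recovered whole reads were added after seeing the data. The tests were tried on simulated data in which a small set of genes changed, evenly up and down. In the libraries most genes were called in each experiment, so that trial cannot show how the tests behave there.

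The members and lists were chosen with earlier results of these data known. From each list, the up to 3 called genes of smallest p in each direction and experiment were named, and the 2 nearest genes of each member among named genes with a mean of at least 1 CPM; 1 gene under this rule is not reported here.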

Additional observations from a re-analysis of the deposited data

Results flagged for a closer look

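In 3 genes the change in SFD@M against Blank differed from that in OTUB1_KD against NC in a test of the difference itself. For Krt8 the difference was -1.66 on the log2 scale, with a rise in one experiment and a fall in the other. The rise kept its call in 1 of 6 fits with 1 library left out. Krt8 was also higher in Blank than in NC (0.84), and in SFD@M against OTUB1_KD it did not pass (-0.87, edgeR adjusted p = 0.196). For Twist1 the difference was -4.22, where the 3 OTUB1_KD libraries spread from 0.809 to 29.6 CPM. This call was lost without any 1 of 10 of the 12 libraries and in 4 of 12 other alternatives, the limma fits. For Zeb2 the difference was 1.04, with a called rise in SFD@M. Zeb2 was also lower in Blank than in NC (-0.47), and in SFD@M against OTUB1_KD it did not pass (0.52, edgeR adjusted p = 0.273). In OTUB1_KD the Zeb2 change did not pass in the fit of that experiment, but did in the fit of all 12 libraries (0.47, adjusted p = 0.0294). Groups of 3 are too small for a test of single outlying libraries.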

How the results depend on the processing

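Of the 5 counts of members called, that of SFD@M against Blank (9) was 9 under each of 13 alternatives and 9 to 10 with 1 library left out. That of OTUB1_KD against NC (5) ranged from 4 to 6 with 1 library left out and was 8 in a fit of all 12 libraries. That of Blank against NC (4) was 4 to 5 with 1 library left out and 1 in the fit of all 12. That of SFD@M against OTUB1_KD (0) was 1 with DESeq2, 3 in the fit of all 12, and 0 to 3 with 1 library left out. The difference between the experiments (3) was 2 to 6 with 1 library left out and 2 to 3 under 12 other alternatives, where Twist1 lost its call in the 4 limma fits. The cause of these shifts was not tested, except that the fit of all 12 shares 1 estimate of the spread. Over all genes, SFD@M against OTUB1_KD gave 2 calls, 1372 with DESeq2, 15 with no filter, 7 with limma-voom, 10, 8 and 4 with limma on log2(TPM + 1), log2(TPM + 0.1) and log2(FPKM + 1), 7 with the replicate block and 2863 in the fit of all 12. Blank against NC gave 8977 and, in the fit of all 12, 2699. Directions that turned belonged to changes that had not passed. Snai1 in OTUB1_KD against NC was -0.0050 and -0.0079 on log2(TPM + 1) and log2(TPM + 0.1), and -0.062 to 0.40 with 1 library left out. Zeb1 in Blank against NC was 0.0037 with no filter, 0.026 and 0.027 on the TPM scales, and -0.063 to 0.031 with 1 library left out, and Snai1 there was -0.011 to 0.15. With 1 library left out, Cdh2 in SFD@M against OTUB1_KD was -0.29 to 0.14 and the Vim difference between the experiments -0.49 to 0.013. Same-numbered libraries did not deviate together (r of deviations -0.263 to 0.0793 over the pairs). At 3 libraries a group, this cannot show whether the numbers pair them. With the replicate block the members called were 5, 9, 4, 0 and 3 for OTUB1_KD against NC, SFD@M against Blank, Blank against NC, SFD@M against OTUB1_KD and the difference, which changed no member's call. The number of genes on the list of TGF-beta and related ligands that fell in OTUB1_KD was then 2 in place of 4. At 16062805 to 18028815 counts a library, changes of Cdh1, Epcam and Cdh2 are limited by the few counts in NC and Blank.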

Other observations

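The transcripts of Zeb1 and Zeb2 were estimated separately in the deposited table, with 16 and 6 entries, and the other 8 members had 1 entry each. Shares of a gene's TPM varied widely between libraries. For Zeb2, transcript NM_001355289 held 53.6% ± 8.40 (mean ± SD, n = 3) in NC, 43.9% ± 14.9 in Blank, 11.2% ± 2.37 in OTUB1_KD and 19.5% ± 7.95 in SFD@M. Transcript NM_001355291 held 11.1% ± 12.4, 26.5% ± 2.85, 28.9% ± 24.9 and 55.1% ± 10.97 in NC, Blank, OTUB1_KD and SFD@M. NM_001289521, the largest Zeb2 entry by mean in OTUB1_KD, held 15.5% ± 5.85, 28.7% ± 16.2, 35.7% ± 22.3 and 9.25% ± 8.46 in the same order. For Zeb1, the largest entry by mean in each group was XM_030250411. It held 42.7% ± 11.9, 44.6% ± 13.0, 47.2% ± 9.11 and 58.4% ± 4.55 in that order. The Zeb1 entry NM_011546 held 37.2% ± 4.61, 36.3% ± 7.33, 37.7% ± 7.54 and 26.4% ± 4.69. These transcripts share most of their sequence, so the split is an estimate, and the differences were not tested.

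The ratio of Krt8 to Vim by TPM was 0.0825 to 0.0851 in NC, 0.191 to 0.193 in Blank, 0.183 to 0.245 in SFD@M and 0.230 to 0.260 in OTUB1_KD, whose Krt8 ranged from 166 to 382 TPM.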
